A study of Mus musculus with 2 samples.

Results

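Mir203 and Mir205, a pair of miRNA genes of stratified epithelium, were followed in small RNA libraries of the embryonic mouse face. The tissue was the embryonic facial prominence of strain B6NCrl at day 14.5, untreated and with no engineered allele named in the labels, and the 2 libraries are biological replicates of 1 group. The labels call each sample a single face from one pup, taken on different days, yet record the sex as pooled, so it is unclear whether a replicate is 1 embryo or several, and day and replicate cannot be told apart. The genes are given by name, by a rule that uses no measured value, although they and the gene lists below were chosen with earlier results of these data known. They are 2 of the 1973 miRNA gene rows of each count table. No row was matched to Mir203b, which was not analysed here as a gene of its own.

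Both genes mark the epidermis and the other layered epithelia that cover the face and line the mouth. In mouse skin, miR-203 is switched on as keratinocytes leave the basal layer and begin to differentiate, and it represses p63 (gene Trp63), the transcription factor that keeps basal cells proliferative. miR-205 is abundant in basal progenitors, where it is required for the expansion of skin stem cells and restrains negative regulators of PI3K and Akt signalling. The miR-200 family, named below for comparison, is a broad epithelial family that represses the mesenchymal factors Zeb1 and Zeb2. In these bulk samples, fewer cells of a type and less RNA per cell cannot be told apart.

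The mature miRNAs are shown with the seed, bases 2 to 8, in capitals, because the seed sets which messages a miRNA pairs with and the members share none. The sequences are those of RefSeq on GRCm38.p6, written 5′ to 3′, and both genes matched by symbol. By general knowledge the 3p arm of miR-203 and the 5p arm of miR-205 are the abundant ones; the counts are per gene and do not separate the arms.
miR-203-3p: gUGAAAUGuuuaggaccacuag
miR-203-5p: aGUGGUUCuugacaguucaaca
miR-205-5p: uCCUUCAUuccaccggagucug
miR-205-3p: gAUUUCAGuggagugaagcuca
Each of these is 22 bases long. Among the mature mouse miRNAs in the RefSeq table, 0 others carried the seed of any of the 4, so neither gene had a seed relative whose counts could be added to it.

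The hairpins are shown with both mature arms in capitals, because a count of a gene is a count of reads placed anywhere in this stretch.
Mir203 hairpin: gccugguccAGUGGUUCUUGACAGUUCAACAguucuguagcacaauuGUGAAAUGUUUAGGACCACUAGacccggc
Mir205 hairpin: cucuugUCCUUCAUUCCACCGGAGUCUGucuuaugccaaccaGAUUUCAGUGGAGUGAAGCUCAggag
Mir203 (ENSMUSG00000065574.1) occupies chr12:112130880-112130955 on the plus strand of mm10, a stretch of 76 bases. In GENCODE M21 it overlapped no other gene. It lies between Aspg, which ends 3321 bases before it, and Kif26a, which begins 15253 bases after it, both on the same strand. Mir205 (ENSMUSG00000065533.1) occupies chr1:193507463-193507530 on the minus strand, 68 bases, within an exon of the noncoding gene 4631405K08Rik, which RefSeq names Mir205hg. The nearest other miRNA gene was Mir3073a at 21558 bases from Mir203, with 0 counts in both libraries, and Mir3962 at 1314471 bases from Mir205.

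The count tables hold uniquely placed reads, by the layout of the files. No stretch of 18 bases of miR-205 occurred in another RefSeq miRNA hairpin on either strand, and the only such hairpin for miR-203 was Gm51289, the miR-203b gene, which lies over Mir203 on the opposite strand. Of 141767 GENCODE M21 transcripts, those of Mir203 alone held the mature miR-203 sequences. Those of Mir205 and of its host gene alone held the mature miR-205 sequences. The rest of the genome was not searched.

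The target pairing of the seeds can be read in 3′UTRs of known targets, whose own levels were not measured here. The bases that pair with the seed, CATTTCA for miR-203-3p and ATGAAGG for miR-205-5p, were searched on the sense strand of the longest 3′UTR of 3 genes in GENCODE M21, and the 2 motifs shared no bases in them. Each site is printed with the matching 7 bases in capitals.
Trp63, miR-203-3p site: gggactctgtggCATTTCAgca
Inppl1, miR-205-5p site: atccgtccggaaATGAAGGaag
The Trp63 3′UTR of 3064 bases held 1 match to miR-203-3p, at bases 2522 to 2528, and 0 to miR-205-5p. Of 1222 genes whose 3′UTR is within 10% of that length, 33.0% held the miR-203-3p motif and 25.6% the miR-205-5p motif. Inppl1 encodes SHIP2, a lipid phosphatase repressed by miR-205 in human keratinocytes, and its 3′UTR of 748 bases held 1 match to miR-205-5p, at bases 492 to 498, and 0 to miR-203-3p. Of 1209 genes of like length, 7.69% held the miR-205-5p motif and 10.8% the miR-203-3p motif. The Zeb2 3′UTR of 4941 bases held 0 matches to either 7-base motif. Of 527 genes of like length, 55.6% held the miR-203-3p motif and 35.7% the miR-205-5p motif. Other kinds of site were not searched.

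Replicate 2 held 6602050 and replicate 1 held 2719153 counts on the strand of the miRNA genes, which is the measurement used throughout. A count of 0 allows up to 3 counts, or 0.454 CPM in replicate 2 and 1.10 CPM in replicate 1 (CPM, counts scaled to a gene-strand total of 1000000 per library). Intervals and floors given here cover counting error alone, since no molecular identifiers are described. Markers of mesenchyme, cartilage, endothelium, skeletal muscle and blood were all detected in both libraries. Adapter ligation favours some miRNAs over others, so levels of different miRNAs are less comparable than the level of 1 miRNA in both libraries.

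By uniquely placed reads, Mir203 was among the most abundant miRNA genes of the face and was higher in replicate 2 than in replicate 1. It had 235027 counts in replicate 2 and 57357 counts in replicate 1. Scaled to CPM, replicate 2 stood at 35599 and replicate 1 at 21094, and the 2 averaged 28346 ± 10257 CPM (SD, n = 2). Mir203 thus took 3.56% of the gene-strand counts of replicate 2 (3.55 to 3.57 by the 95% Wilson interval) and 2.11% of those of replicate 1 (2.09 to 2.13). The level was high in both libraries, and the intervals do not overlap. By CPM Mir203 ranked 7 in replicate 2 and 13 in replicate 1, and 9 by the mean.

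Mir205 stood at a lower and more even level. It had 49576 counts in replicate 2 and 23669 counts in replicate 1. Scaled to CPM, replicate 2 stood at 7509 and replicate 1 at 8705, and the 2 averaged 8107 ± 845 CPM (SD, n = 2). Mir205 took 0.751% of the counts of replicate 2 (0.744 to 0.758 by the 95% Wilson interval) and 0.870% of those of replicate 1 (0.859 to 0.882). Here the slightly lower value was in replicate 2, the library in which Mir203 was higher. Mir205 ranked 30 in replicate 2, 29 in replicate 1 and 30 by the mean.

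The spread between the replicates sets how finely these ranks can be read. The ranks also leave out reads placed at several sites, 28.5% of reads in replicate 2 and 29.8% in replicate 1. Genes with several copies can therefore rank too low. Next above Mir203 by mean CPM were Mir322 at 34808 ± 7081 CPM and Mir23b at 32381 ± 3777 CPM, and next below it Mir130a at 25247 ± 2260 CPM and Mir411 at 24405 ± 1935 CPM (SD, n = 2 each). The 2 values of each of these 4 genes overlapped the range of Mir203, so the order around Mir203 lies within the spread of the replicates. Next above Mir205 were Mir22 at 9209 ± 2168 CPM and Mir381 at 8933 ± 1120 CPM, and next below it Mir652 at 7572 ± 1349 CPM and Mir183 at 6575 ± 693 CPM. Of these, Mir183 alone lay below both values of Mir205. Mir203 itself lay above Mir205 in both libraries with no overlap.

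**Figure D1:**
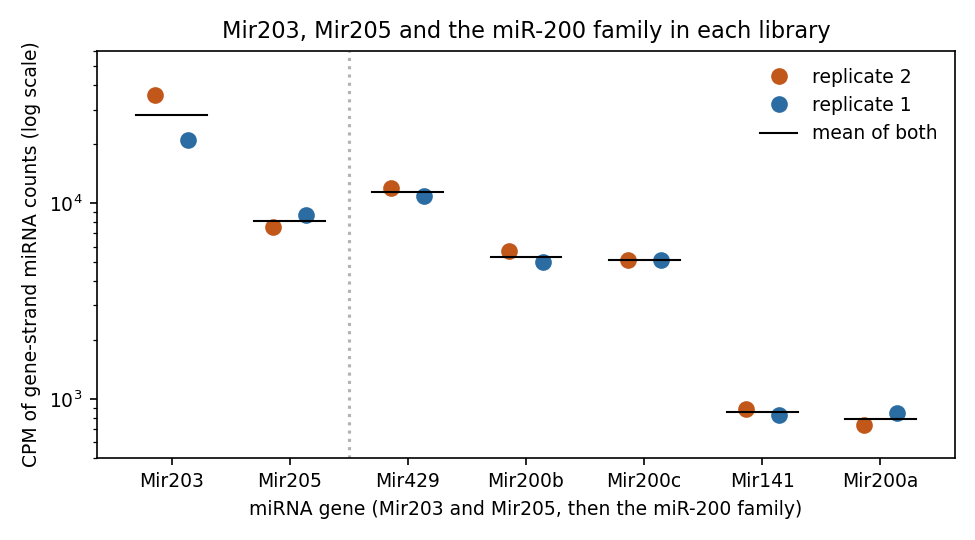
CPM (log scale) of Mir203, Mir205 and the 5 miR-200 family genes, with a point for each library, replicate 2 left of replicate 1, and a line at the mean. Mir203 lies above the other genes in both libraries and its 2 points are the farthest apart.

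Setting the differentiation-linked gene against the progenitor-linked gene within a library removes the scaling of the library. In replicate 2 there were 4.74 counts of Mir203 for each count of Mir205, and Mir203 made up 82.6% of the pair (95% exact binomial interval 82.4 to 82.7). In replicate 1 there were 2.42, and Mir203 made up 70.8% (70.5 to 71.1). Mir203 therefore led in both libraries, by a wider margin in replicate 2. On the log2 scale this is 2.25 for replicate 2 and 1.28 for replicate 1, averaging 1.76 ± 0.68 (SD, n = 2). Per base of hairpin the ratio was 4.24 in replicate 2 and 2.17 in replicate 1, while the mature arms have equal lengths. With 2 libraries the smallest exact permutation p is 0.5, so no test over samples can pass 0.05.

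The ratio of Mir203 to Mir205 was 1.96-fold higher in replicate 2 than in replicate 1. On the log2 scale the change was 0.97, with a counting SE of 0.013 and a 95% counting interval of 0.94 to 0.99. Fisher's exact test on the 4 counts gave a two-sided p below 1e-300. This test compares the reads of 2 libraries, not conditions, and it is passed by most pairs of abundant genes: of the 5151 pairs of genes that each averaged 1000 CPM or more, 92.1% had an adjusted p under 0.05. By size the pair stood further out, since 3.49% of the same pairs, this pair included, changed their ratio at least as much. These pairs reuse the same 102 genes and are not independent. Of these genes, 61 had a higher log2 ratio of replicate 2 over replicate 1 than Mir205, and 40 a lower one. Mir205 was thus an ordinary partner, and the pair stood out by the ratio of Mir203.

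**Figure D2:**
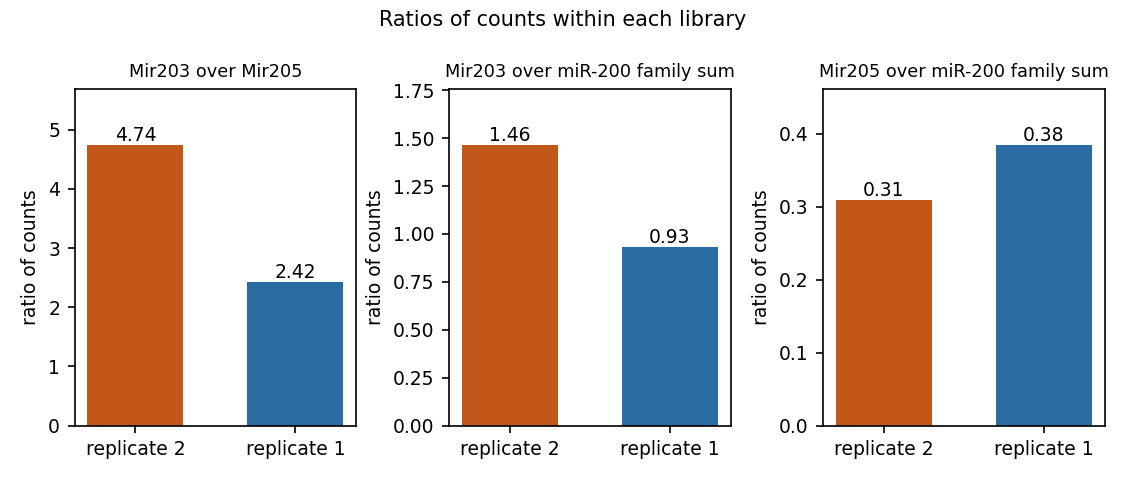
Ratio of counts within each library for Mir203 over Mir205, Mir203 over the miR-200 family sum and Mir205 over that sum, replicate 2 left of replicate 1 and each axis starting at 0. The first ratio is 4.74 in replicate 2 and 2.42 in replicate 1, the second 1.46 and 0.93, and the third 0.31 and 0.38, in the same order of replicates.

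Each gene was then compared between the libraries against all other miRNA genes. With TMM scaling of the libraries, Mir203 was 1.84-fold higher in replicate 2, or 0.88 on the log2 scale (counting SE 0.0067). The CPM levels given above are scaled to total counts, by which it was 1.69-fold higher. The exact binomial test with Benjamini-Hochberg adjustment over all 372 tested genes gave an adjusted p below 2.19e-299. The same test called 52.2% of all tested genes, 27.4% higher and 24.7% lower in replicate 2, so passing it does not set a gene apart. Called genes at least 1.5-fold higher in replicate 2 were 16, or 4.30%, and Mir203 was one of them. Few abundant genes differed by as much. Of the 202 genes averaging 100 CPM or more, 3.47%, Mir203 itself included, differed at least as much as Mir203 in either direction. Of the 102 genes averaging 1000 CPM or more, 1.96% did, again with Mir203 included, and Mir449a alone had a higher ratio.

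With TMM scaling, Mir205 was close to even between the libraries. Its log2 ratio was -0.088, replicate 2 over replicate 1, with a counting SE of 0.011, or 0.941-fold. It passed the exact binomial test as lower, with an adjusted p of 7.31e-14, a call it shares with 24.7% of tested genes. Among the 102 genes averaging 1000 CPM or more, 86 differed between the libraries by more than Mir205 did. The median size of the log2 ratio over these 102 genes was 0.24. Scaling by total counts in place of TMM lowered every log2 ratio by 0.13. Mir203 was then at 0.76 and Mir205 at -0.21, with both directions as before. Without a count filter before TMM, Mir205 was at -0.040, so the size of its small difference depends on the scaling.

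**Figure D3:**
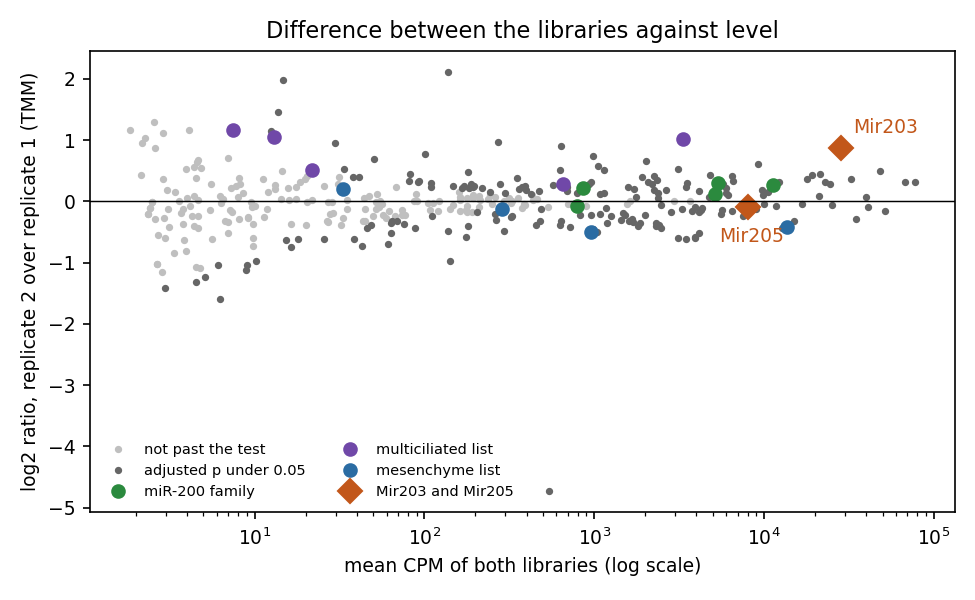
Log2 ratio, replicate 2 over replicate 1 after TMM scaling, against mean CPM (log scale) for the 372 tested genes, with called genes in dark grey. Mir203 stands at 0.88 at the high end of the abundance range, while Mir205 lies at -0.088, near the zero line.

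The miR-200 family showed whether other epithelial miRNAs moved as Mir203 did. The family summed to 24326 CPM in replicate 2 and 22652 CPM in replicate 1, averaging 23489 ± 1184 CPM (SD, n = 2). By CPM, which scales to total counts, that sum was at a log2 ratio of 0.10, against 0.76 for Mir203. With TMM, of the 5 family genes, 4 were called higher in replicate 2 and 0 lower. Of all 372 tested genes, 27.4% were called higher and 24.7% lower. The median log2 ratio of the family was 0.21, against -0.017 over all tested genes. With total counts the family median was 0.088, and Mir200c, called higher with TMM, was at -0.0020 and lost its call, while Mir200a, not called with TMM, was called lower at -0.20, and at -0.087 with a minimum of 100 counts. The highest member was Mir429, with 11895 CPM in replicate 2 and 10828 CPM in replicate 1, so that Mir203 exceeded every single family gene in both libraries. Mir200b had 5670 CPM in replicate 2 and 5001 CPM in replicate 1, and Mir200c 5141 and 5148 CPM in the same order. Mir141 and Mir200a averaged 857 ± 37.1 and 790 ± 75.8 CPM (SD, n = 2 each).

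Mir203 rose relative to each miR-200 family gene in replicate 2. For each count of the family there were 1.46 counts of Mir203 in replicate 2 and 0.931 in replicate 1. The change in the ratio of Mir203 to a single family gene ranged from a log2 of 0.57 for Mir200b (counting SE 0.016) to 0.95 for Mir200a (counting SE 0.037). All 5 passed Fisher's exact test, with adjusted p of at most 4.85e-70 over the 11 ratios compared. Mir205 was the other way round. For each count of the family there were 0.309 counts of Mir205 in replicate 2 and 0.384 in replicate 1. Its ratio fell by 0.39 on the log2 scale against Mir200b (counting SE 0.018), by 0.35 against Mir429 (0.015), by 0.30 against Mir141 (0.038) and by 0.21 against Mir200c (0.018), each past the same test with an adjusted p of at most 4.97e-16. Against Mir200a the change was -0.017 with a 95% counting interval of -0.092 to 0.058 and an adjusted p of 0.662 by Fisher's exact test. In all, 10 of the 11 ratios passed, against the 92.1% of abundant gene pairs given above. Mir141 and Mir200a average below the 1000 CPM that those pairs require, so the 2 sets are not fully alike.

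**Figure D4:**
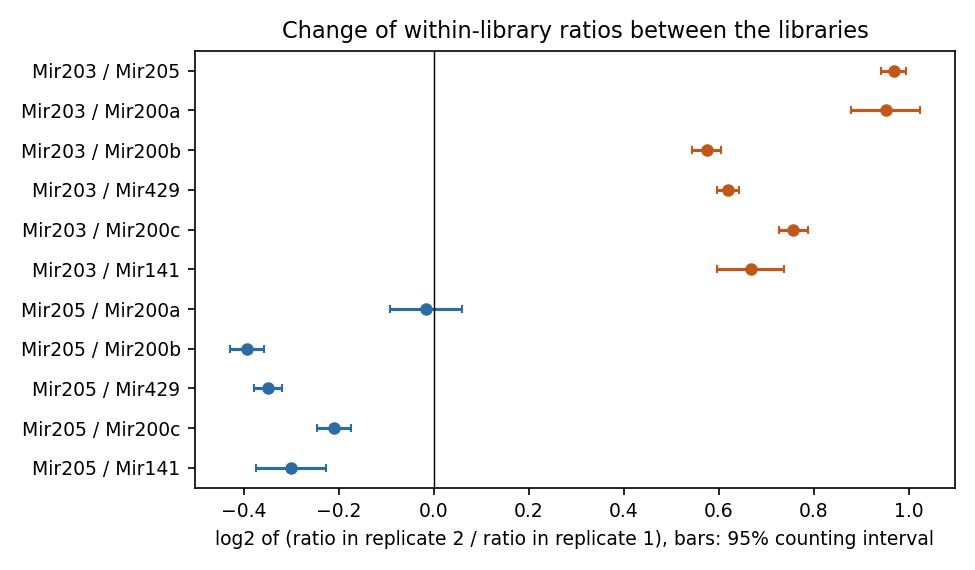
Log2 change of 11 within-library ratios, replicate 2 over replicate 1, with 95% counting intervals as bars. All 6 ratios with Mir203 on top lie between 0.57 and 0.97, and the 5 with Mir205 on top lie between -0.39 and -0.017.

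Other miRNAs of skin epithelium differed in both directions. Of the 7 listed genes 6 were tested, of which 2 were called higher, 1 lower and 3 neither, shares near the 27.4% higher and 24.7% lower of all tested genes. Their median log2 ratio was 0.088. Mir31, a miRNA of growing hair follicles and activated keratinocytes, had 485 CPM in replicate 2 and 467 CPM in replicate 1, a log2 ratio of 0.18 that lost its call with total counts. Mir24-2 was at 0.39. Mir125b-1, a copy of miR-125b, which holds skin stem cells back from differentiation, had 1337 CPM in replicate 2 and 1692 CPM in replicate 1, a log2 ratio of -0.21 and called lower. Mir34a, Mir125b-2 and Mir184 passed in neither direction, at 0.089, -0.044 and 0.087, though Mir125b-2 was called lower with total counts, at -0.17. Mir184 had 46.7 CPM in replicate 2 and 47.8 CPM in replicate 1. Mir24 and Mir125b have more than one gene copy, and reads placed at several sites are not in these counts.

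Markers of other cell types also differed between the libraries, and their part in the difference of Mir203 was not tested. For the counts that follow, 27.4% of all tested genes were called higher and 24.7% lower in replicate 2. All 5 listed miRNAs of multiciliated epithelium were called higher, summing to 5085 CPM in replicate 2 and 2987 CPM in replicate 1, with a median log2 ratio of 1.02. Their leading gene Mir449a had 4341 CPM in replicate 2 and 2334 CPM in replicate 1. Of these Mir34b, with 164 counts in replicate 2 and 51 in replicate 1, lost its call with total counts, with no count filter and with thinning to equal depth. Mir449b had 67 counts in replicate 2 and 13 in replicate 1, and Mir449c 113 and 24 in the same order. Both left the test at a minimum of 100 counts. Of the 4 mesenchymal genes 2 were called lower and 0 higher. The list summed to 12119 CPM in replicate 2 and 17643 CPM in replicate 1, of which Mir214 alone held 11066 and 16135 CPM, in the same order. Mir199a has several gene copies, and reads placed at several sites are missing from its counts and from this sum. Mir214 and Mir199b were called lower, at log2 ratios of -0.42 and -0.50, and Mir199a-1, at 0.21, passed in neither direction. Mir199a-2, at -0.11, was called lower only with total counts, a minimum of 100 counts or thinning. The sensory epithelium cluster Mir183, Mir96 and Mir182 was called higher in all 3 members, at 0.34, 0.53 and 0.11, the last with a direction that turned with total counts.

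Set against Mir214, the leading listed mesenchymal gene by these counts, the 2 epidermal genes had higher ratios in replicate 2, to different degrees. For each count of Mir214 there were 3.22 counts of Mir203 in replicate 2 and 1.31 in replicate 1. There were 0.679 counts of Mir205 in replicate 2 and 0.539 in replicate 1. With TMM, Mir205 itself was at a log2 ratio of -0.088 and Mir214 at -0.42. Both were thus lower in replicate 2, Mir214 by more, which gives the higher ratio of Mir205 to Mir214. With total counts Mir205 was at -0.21 and Mir214 at -0.54. The miR-200 family gave 2.20 in replicate 2 and 1.40 in replicate 1, a step between those of Mir203 and Mir205. On the log2 CPM scale Mir126a, the only endothelial marker listed, was higher in replicate 2 by 0.38. The only leukocyte marker, Mir223, was higher by 0.39 on that scale. The erythroid sum was higher by 0.37, though its member Mir144 lost its call with total counts. The skeletal muscle sum was higher by 0.19, led by Mir206. Mir133b, also listed for muscle, had 254 CPM in replicate 2 and 265 CPM in replicate 1 and was not called. The cartilage sum was at -0.059 on that scale, but its leading gene Mir140 was at 0.074 with TMM, so its direction turned with the scaling.

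The 5 genes nearest to each member in their log2 ratio, among those averaging 100 CPM or more, are named here. Likeness here is the distance between log2 ratios over 2 libraries, which is a weak measure. For Mir203 these were Mir204 at 0.90, Mir92b at 0.96, Mir7j at 0.77, Mir449a at 1.02 and Mir375 at 0.74. They lie up to 0.14 from Mir203, and the highest of them, Mir449a, averaged 3338 ± 1420 CPM (SD, n = 2), below Mir203 in both libraries. For Mir205 these were Mir25, Mirlet7g, Mir151, Mir185 and Mir328, all between -0.093 and -0.077. They lie within 0.011 of Mir205, closer than those of Mir203. Mir205 lies nearer the middle of the ratios, where genes are denser, so this closeness carries no further information. The counting SEs of Mir25, Mir185 and Mir328 were 0.044, 0.071 and 0.077, above that distance. With TMM none of these was called, while Mirlet7g and Mir151 were called lower.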

How the data were processed

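The members and lists were chosen with earlier results of these data known. The deposited values are raw counts per miRNA gene, 1 library per file, with reads aligned to mm10 and counted over GENCODE M4, per the labels and the deposited metadata text. For the aligner and the trimming of adapters, no name is given in the sources used here. The files carry 4 summary rows, left out of library sizes, and 3 count columns in the layout of STAR gene counts, which counts uniquely placed reads. The gene-strand column was used. In replicate 2, 28.5% of reads were placed at several sites and 17.6% were unmapped, against 29.8% and 16.6% in replicate 1.

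Symbols came from GENCODE M21 by identifier (1894 of 1973 rows matched), and sequences from RefSeq on GRCm38.p6, the same assembly. Genes with a mean of at least 10 counts entered an exact two-sided binomial test given TMM effective library sizes (edgeR 4.0.16), adjusted by Benjamini-Hochberg at 0.05, with log2 ratios using a prior of 0.5 counts. A quasi-likelihood test has no residual degrees of freedom here. Ratios were compared by Fisher's exact test (scipy 1.17.1), and p-values under 1e-300 are given as below it. Both tests ask whether these libraries differ beyond counting error, and neither estimates the spread between replicates. The binomial step was tested on simulated data. Named genes are the members, the lists, the 5 genes nearest in log2 ratio and the 2 next above and below in rank. Alternatives were other scalings (total counts, DESeq2 1.42.0 size factors), filters, priors, denominators, the unstranded column, thinning and leaving out a replicate or the highest gene.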

Additional observations from a re-analysis of the deposited data

Results flagged for a closer look

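Reads on the opposite strand of Mir203 lie outside the gene-strand measurement and were above the 3 counts that a count of 0 allows. There were 28 in replicate 2 and 8 in replicate 1, or 0.0119% and 0.0139% of the reads at the locus, in the same order. Mir205 had 0 opposite-strand counts in both. Of the 149 genes with at least 1000 counts on both strands together in each library, 15 had over 3 opposite-strand counts in each and 119 had 0 in each. RefSeq places the miR-203b gene, Gm51289, on that strand, and its arms are shown with the seed in capitals because each is complementary to an arm of miR-203 over a run of 20 bases.
miR-203b-5p: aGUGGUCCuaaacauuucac
miR-203b-3p: uUGAACUGucaagaaccacugg
The table gives no read sequences, so whether these reads are miR-203b was not tested. At 4.24 CPM equivalent in replicate 2 and 2.94 in replicate 1, scaled to the gene-strand total, they are far below Mir203 itself.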

How the results depend on the processing

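The directions of Mir203, Mir205 and their ratio held under every alternative run. With all reads as the denominator of CPM, the mean level was 13888 for Mir203 and 3959 for Mir205, since the denominator then holds unassigned reads. Over the settings of the binomial test, the log2 ratio was 0.76 to 0.93 for Mir203 and -0.21 to -0.040 for Mir205. Leaving out a replicate gave 21094 to 35599 CPM for Mir203, 7509 to 8705 CPM for Mir205 and 1.28 to 2.25 for their log2 ratio. Tests between the libraries could not be run with 1 library left. No paired analysis was possible because there is 1 group. The 194 calls were 102 higher and 92 lower, and with total counts 64 higher and 133 lower; across the other settings 174 to 204 genes were called. Mir200c (-0.0020), Mir34a (-0.036), Mir184 (-0.039), Mir182 (-0.016), Mir140 (-0.052) and Mir133b (-0.060) turned with total counts, which shift every ratio. Mir125b-2 turned with no count filter (0.0030) and Mir184 with thinning (-0.11); the cause was not tested. Thinning also ended the calls of Mir34b and Mir455.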
